A study of Homo sapiens with 6 samples.

Results

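The 44 genes described here encode the machinery that copies DNA in S phase. They cover origin licensing, the helicase, the polymerases, the sliding clamp and its loader, single-strand binding and flap joining, deoxynucleotide supply, and chromatin assembly behind the fork. They were taken by symbol from a list of named members, and all 44 were found among the 18806 genes of the deposited table. All 44 also passed the filter on low values, which 11151 genes passed and which asked for a level of 1 TPM or above in at least 2 libraries. TPM is a transcript level scaled by length, as a share of its library. The lowest level of any member in any library was 12.2 TPM, of GINS3, so the filter did not act on these genes.

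Polyadenylated RNA was sequenced from Mono-mac-6 cells, a line from a human monocytic leukemia that carries the MLL-AF9 fusion gene. Every library came from a single clone that expressed Cas9, received a guide by lentivirus and was kept under 2 drugs, blasticidin at 10 µg per ml together with hygromycin B at 200 µg per ml. The groups were sgNS (the control guide), sgDDX6.1 and sgDDX6.2 (both against DDX6, an RNA helicase of processing bodies), with 2 libraries each. The labels give harvest at day 8 after infection, while the design text gives selection for 1 to 2 weeks, so the day is uncertain. Every group rests on the same clone, and nothing in the labels ties the 2 libraries of any group to different cultures. The p-values therefore measure the spread between these libraries, taken in part from other genes of like level. That spread may be technical.

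Before S phase, ORC, CDC6 and CDT1 load the MCM2 to MCM7 hexamer onto origins, and geminin (GMNN) binds CDT1 to stop a repeat loading. CDC45 and the GINS complex then turn the hexamer into the active CMG helicase. RFC loads the ring of PCNA around DNA, polymerases alpha, delta and epsilon extend the new strands, and FEN1 and LIG1 join the lagging-strand fragments. Transcription of many of these genes rises at the G1/S boundary through E2F factors, whose binding sites commonly lie close to the start of the gene.

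DDX6 mRNA was 102 and 99.5 TPM in sgNS and between 52.0 and 54.4 TPM in the 4 sgDDX6 libraries. It was thus lower in every library whose label names a DDX6 guide. All 12 myeloid markers in the list were above the filter, with LYZ, SPI1 and CD33 high and CD14 at or below 1.36 TPM in every library. Of 6 T and B cell markers, 4 were at 0 in every library, as were 3 of 6 erythroid and megakaryocytic markers. The summed level of either list did not pass 2.00 TPM in any library. Epithelial and fibroblast markers summed to 21.0 and 21.2 TPM in sgNS and between 11.4 and 19.6 TPM in sgDDX6, most of it KRT18, with CDH1 at 0. The summed level of the myeloid markers went from 12740 and 13241 TPM in sgNS to between 21899 and 22421 TPM in sgDDX6, and LYZ and S100A9 made up most of it. Of the 12 markers 7 rose, against 33.8% of all tested genes, among them S100A9 (1.48) and LYZ (0.56) on the log2 scale. The 4 that fell, against 32.9%, were MPO (-1.23), FCGR1A (-0.59), CD14 (-0.49) and ITGAM (-0.34). CSF1R and CD4, both counted as risen, were below 1 TPM in sgNS and passed the filter only through sgDDX6 libraries. CD14 passed it only through sgNS libraries. The share of TPM in ribosomal protein genes was 23.6% and 23.7% in sgNS and between 18.1% and 19.2% in sgDDX6. The part of either shift in the results that follow was not tested.

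With DDX6 targeted, most of the 44 genes were lower in the average over both guides, by modest amounts and not as a block. By guide, 19 were called lower with sgDDX6.1 and 29 with sgDDX6.2, against 29.7% and 32.7% of all tested genes. In the comparison of both guides with sgNS, 27 of the 44 members fell, against 32.9% of all tested genes called lower, and 4 rose, against 33.8% called higher. Both directions together took in 66.7% of all tested genes, so a call as such is common here. Calls are limma adjusted p-values under 0.05, on the log2(TPM + 1) scale. The median log2 fold change was -0.19 over the members and 0.00 over all tested genes, and CDT1 was the only member that changed 2-fold or more. In 28 members all 4 sgDDX6 libraries lay below both sgNS libraries, against 31.9% of all tested genes, and in 4 they lay above, against 31.5%. TPM is a share of the library, so a gene's value also depends on the share that other genes take. With TPM rescaled without ribosomal protein genes, 35 members were lower and 4 higher, while over all genes 4796 were lower and 2861 higher. With all sgDDX6 libraries fitted as 1 group, the 9 members ORC6, GMNN, MCM3, GINS3, GINS4, RFC5, POLA1, POLD1 and UHRF1 lost their call (adjusted p from 0.0507 to 0.369). In bulk RNA, fewer cells in S phase and less of these mRNAs per cell cannot be told apart.

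**Figure D1:**
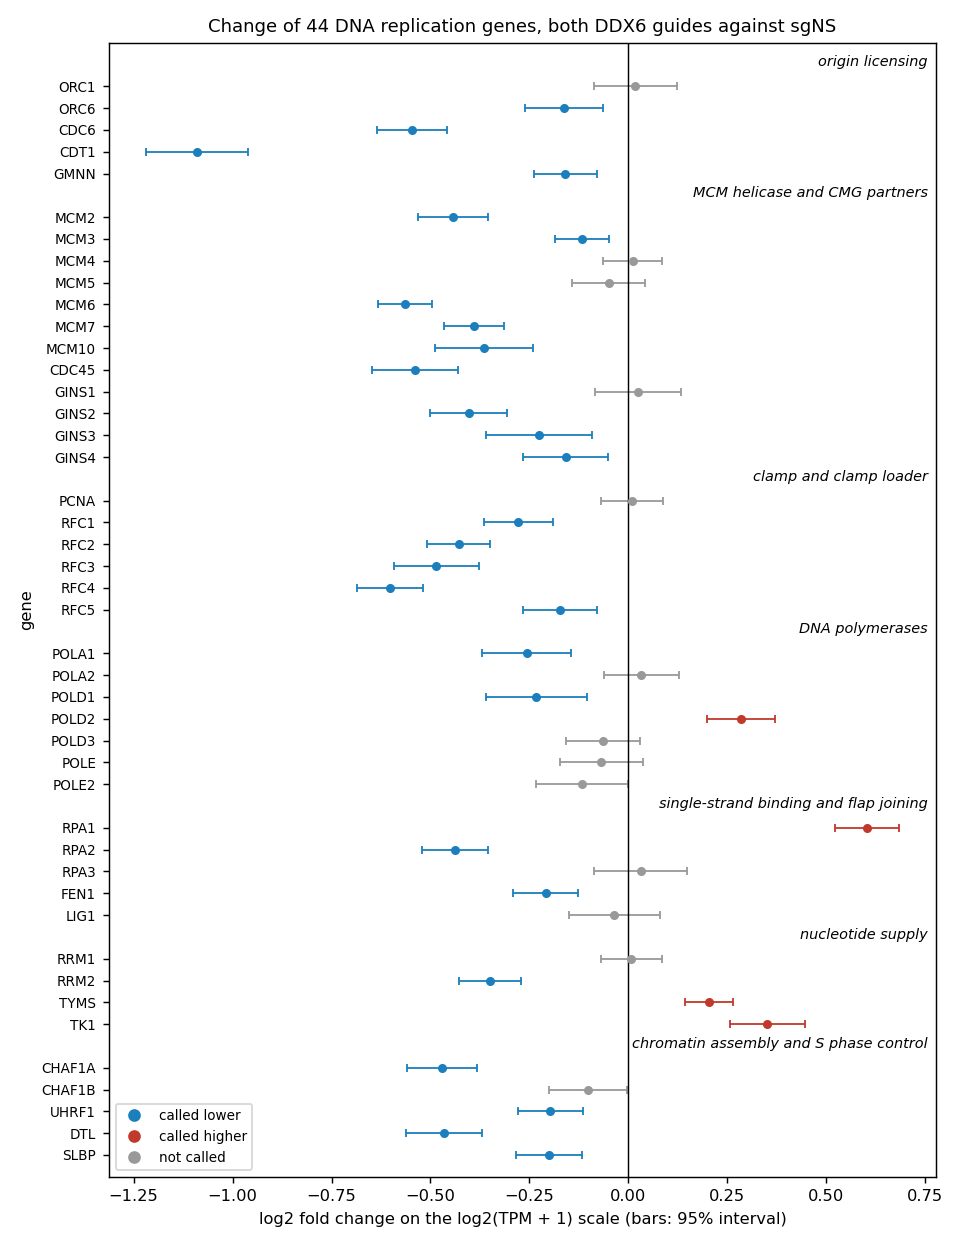
Log2 fold change of each of the 44 replication genes for both DDX6 guides against sgNS, by role. Points are limma estimates, bars are 95% intervals that are not adjusted for the number of genes, and colours show the call. CDT1 stands lowest at -1.09, RPA1 highest at 0.60, and PCNA lies at 0.01.

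The genes were chosen by role and not by promoter sequence. As E2F factors act on many genes of this role, the choice itself favours E2F sites. RefSeq promoter windows (GRCh38.p14, 250 bases before to 50 after a start) were at hand for 38 members; MCM4, MCM5, GINS4, POLD3, RPA2 and RPA3 had none. An E2F-type match was any of TTTCCCGC, TTTGGCGC, TTTCGCGC or TTTGCCGC on either strand, and matches may overlap. Such a match lay in a window of 20 of the 38 members (52.6%), against 6.75% of tested genes with a window and 3.31% of all windows. The members with a match did not all move alike. It was found for 13 of 25 members called lower, 6 of 9 not called and 1 of 4 called higher. The sequences below are on the gene's strand, 5′ to 3′, with matches in capitals. A longer stretch is shown for MCM6, the member of the helicase group that fell most, because it holds 4 matches in 2 overlapping pairs. The others are 30 bases around the match nearest the start, for members that fell (CDT1, CDC6, DTL, GINS2, RFC3, POLA1), were not called (PCNA, LIG1, POLA2) or rose (TYMS).
MCM6 (chr2:135876444-135876603, minus strand, the 160 bases before the start): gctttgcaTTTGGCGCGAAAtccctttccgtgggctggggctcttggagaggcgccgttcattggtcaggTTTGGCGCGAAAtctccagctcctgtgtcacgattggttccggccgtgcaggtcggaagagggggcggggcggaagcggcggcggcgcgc
CDT1 (chr16:88803743-88803772, plus strand): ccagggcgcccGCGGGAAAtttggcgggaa
CDC6 (chr17:40287875-40287904, plus strand): ggccattcggaTTTGGCGCgagcgcggctg
DTL (chr1:212035729-212035758, plus strand): cgtgacgtcagTTTGGCGCggagtttggcg
GINS2 (chr16:85688967-85688996, minus strand): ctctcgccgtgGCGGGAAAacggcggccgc
RFC3 (chr13:33818083-33818112, plus strand): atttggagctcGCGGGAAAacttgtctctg
POLA1 (chrX:24693770-24693799, plus strand): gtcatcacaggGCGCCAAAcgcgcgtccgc
PCNA (chr20:5126663-5126692, minus strand): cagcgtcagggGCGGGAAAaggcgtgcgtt
LIG1 (chr19:48170440-48170469, minus strand): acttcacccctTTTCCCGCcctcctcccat
POLA2 (chr11:65261898-65261927, plus strand): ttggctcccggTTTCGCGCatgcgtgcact
TYMS (chr18:657603-657632, plus strand): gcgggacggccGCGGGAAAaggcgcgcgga
CDT1, GINS2, RFC3, PCNA and TYMS thus carry the same 8 letters in capitals, GCGGGAAA, the reverse strand of TTTCCCGC, and 3 of these genes fell while PCNA was not called and TYMS rose. A match is a description of the sequence and does not show that a factor binds there. The CCAAT box, searched as CCAAT on either strand, lay in a window of 24 of the 38 members (63.2%), against 43.5% of tested genes with a window.

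**Figure D2:**
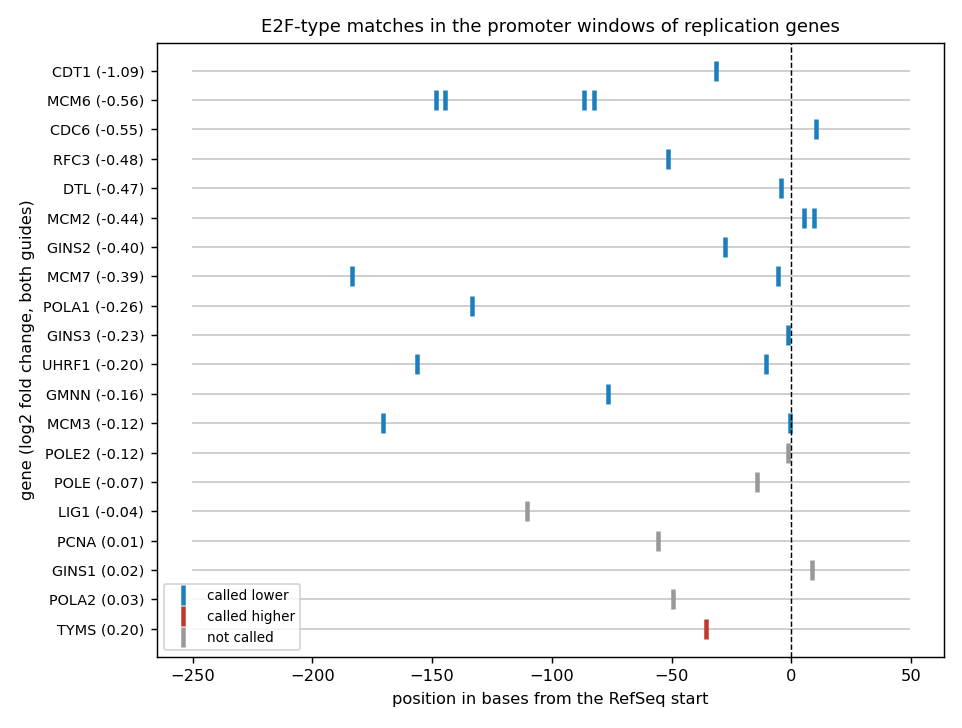
Position of E2F-type matches in the promoter windows of the 20 members that hold any, in bases from the RefSeq start (dashed line), one row a gene, ordered by log2 fold change. Ticks mark matches and colours the call; for genes with several starts, each tick is placed from the start of its own window. The first bases of matches lie between -187 and 7 in genes called lower and between -114 and 5 in genes not called.

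Among origin licensing genes, 4 of 5 fell, against 32.9% of all tested genes, and ORC1 was not called. CDT1 (chromosome 16, 88803213 to 88809258 in GRCh38), which loads the MCM hexamer, was 59.5 and 64.6 TPM in sgNS, 29.4 and 31.2 in sgDDX6.1 and 25.5 and 28.6 in sgDDX6.2. All 4 sgDDX6 libraries lay below both sgNS libraries, a log2 fold change of -1.09 (SE 0.06, adjusted p = 2.02e-08). CDC6, the ATPase that works with CDT1, was 94.3 and 90.8 TPM in sgNS, 70.5 in both sgDDX6.1 libraries, and 57.3 and 55.5 in sgDDX6.2. It fell by 0.55 (SE 0.04) without overlap of the groups. GMNN, the inhibitor of CDT1, moved much less, with 151 and 147 TPM in sgNS, 145 and 143 in sgDDX6.1 and 126 and 121 in sgDDX6.2, a log2 fold change of -0.16 (SE 0.04, adjusted p = 0.00221). The call for GMNN came with sgDDX6.2 (-0.27, adjusted p = 0.000152), while sgDDX6.1 gave -0.05 (adjusted p = 0.339). ORC6, a subunit of the origin recognition complex, was 45.5 and 43.7 TPM in sgNS, 45.6 and 46.6 in sgDDX6.1 and 33.8 and 34.8 in sgDDX6.2. Its average over both guides (-0.16) was called, but only the sgDDX6.2 libraries lay below sgNS, and without the first sgNS library the call was lost (adjusted p = 0.0817). ORC1, the largest ORC subunit, was not called over both guides (0.02, 95% interval -0.09 to 0.12). With sgDDX6.1 alone ORC1 was called higher (0.17, adjusted p = 0.0218).

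The ratio of CDT1 to GMNN mRNA within a library is not changed by a constant factor on that library. It was 0.395 and 0.439 in sgNS, 0.202 and 0.219 in sgDDX6.1, and 0.203 and 0.236 in sgDDX6.2. Every sgDDX6 library thus had a lower CDT1 to GMNN ratio than either sgNS library, with overlap between the 2 DDX6 guides. The mean log2 ratio differed by -0.96 between sgDDX6 and sgNS. The ratio is given as a description, with no test.

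**Figure D3:**
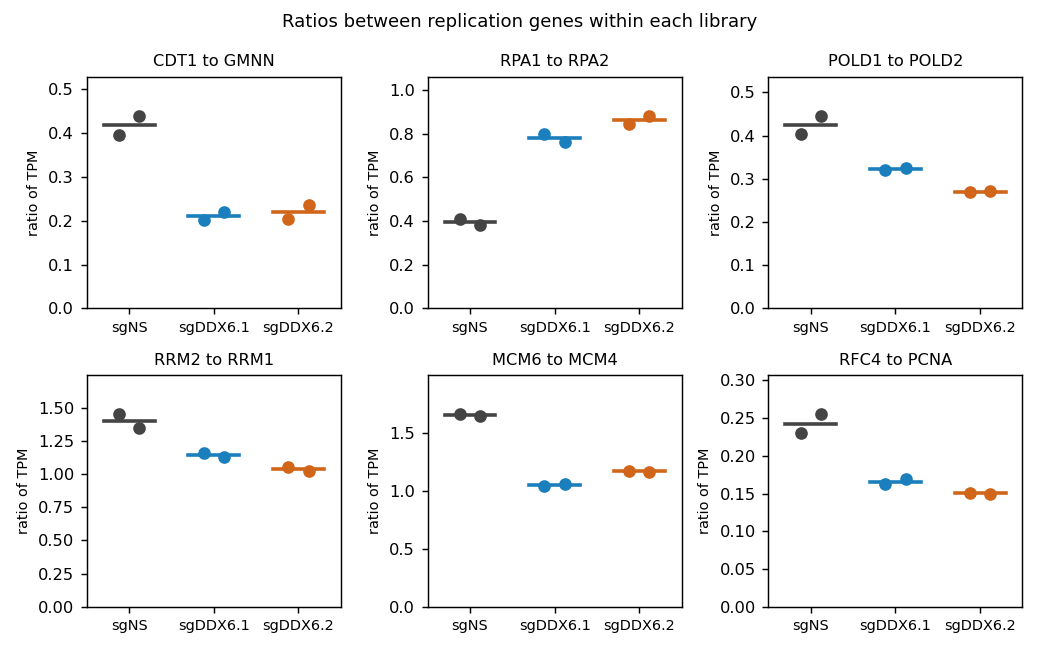
Ratio of TPM between pairs of replication genes within each library, by group; points are libraries and lines are group means. The sgDDX6 libraries lie below sgNS for CDT1 to GMNN, POLD1 to POLD2, RRM2 to RRM1, MCM6 to MCM4 and RFC4 to PCNA, and above it for RPA1 to RPA2. All ratios but CDT1 to GMNN were chosen after the values were seen.

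In the helicase group, 9 of 12 genes fell, against 32.9% of all tested genes, and MCM4, MCM5 and GINS1 were not called. MCM6 (chromosome 2, 135839626 to 135876426), a subunit of the hexamer, was 341 and 343 TPM in sgNS, 232 and 226 in sgDDX6.1, and 233 and 232 in sgDDX6.2. Both guides gave nearly the same level, a log2 fold change of -0.56 (SE 0.03, adjusted p = 2.97e-08). CDC45, which joins the hexamer to form the active helicase, was 43.7 and 46.2 TPM in sgNS, 34.4 and 34.0 in sgDDX6.1 and 26.5 and 28.3 in sgDDX6.2 (-0.54, SE 0.05). MCM2 was 281 and 302 TPM in sgNS, 223 and 226 in sgDDX6.1 and 198 and 211 in sgDDX6.2 (-0.44, SE 0.04). MCM7 fell by 0.39 and MCM3 by 0.12, and the fall of MCM3 lost its call without the second sgNS library (adjusted p = 0.0549). MCM4 and MCM5 were not called over both guides, at 0.01 (95% interval -0.06 to 0.09) and -0.05 (-0.14 to 0.04).

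The 6 MCM subunits form a hexamer with 1 copy of each, yet their mRNAs changed unequally. Their summed level was 1589 and 1638 TPM in sgNS, 1339 and 1340.1 in sgDDX6.1 and 1282 and 1316 in sgDDX6.2. Of that sum MCM6 held 21.4% and 20.9% in sgNS, and MCM7 20.9% and 21.1%. In sgDDX6 libraries the share of MCM6 was between 16.8% and 18.2%, and MCM3 held the highest share, between 20.0% and 21.4%. MCM4 went from 12.9% and 12.7% to between 15.1% and 16.6%. MCM5 had the lowest share in every library, 8.57% and 8.62% in sgNS and between 9.004% and 11.4% in sgDDX6.

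Of the GINS subunits, GINS2 fell most, by 0.40, from 55.5 and 55.0 TPM to 43.7 and 45.4 in sgDDX6.1 and 39.6 and 37.8 in sgDDX6.2. GINS3 fell by 0.23 and GINS4 by 0.16, while GINS1 was at 0.02 (95% interval -0.08 to 0.13). The call for GINS4 was lost without either sgNS library or without the first sgDDX6.2 library. MCM10, which helps to activate the helicase, fell by 0.36 (SE 0.06), from 24.8 and 26.3 TPM to 22.6 and 21.6, and 16.7 and 18.1.

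Over both guides all 5 subunits of the clamp loader RFC fell, against 32.9% of all tested genes. The clamp itself was not called. RFC4 (chromosome 3, 186789880 to 186807058) was 114 and 118 TPM in sgNS, 79.3 and 80.7 in sgDDX6.1 and 73.3 and 71.5 in sgDDX6.2, a log2 fold change of -0.60 (SE 0.04, adjusted p = 8.63e-08). RFC3 was 31.6 and 31.8 TPM in sgNS, 23.9 and 23.0 in sgDDX6.1 and 21.4 and 21.2 in sgDDX6.2 (-0.48, SE 0.05). RFC2 was 125 and 126 TPM in sgNS, 94.3 and 93.6 in sgDDX6.1 and 93.1 and 91.1 in sgDDX6.2 (-0.43, SE 0.04). In these 3 genes the groups did not overlap, and RFC1, the large subunit, and RFC5 fell less, by 0.28 and 0.17. RFC5 was called lower with sgDDX6.2 (-0.27) but not with sgDDX6.1 (-0.07). The summed RFC level was 424 and 425 TPM in sgNS and between 308 and 330.0 TPM in sgDDX6. PCNA, the ring that RFC loads, was 498 and 461 TPM in sgNS, 488 and 476 in sgDDX6.1, and 488 and 476 in sgDDX6.2. All 4 sgDDX6 values lay between both sgNS values, with a fold change of 0.01 (95% interval -0.07 to 0.09). The ratio of RFC4 to PCNA was 0.230 and 0.255 in sgNS, 0.162 and 0.170 in sgDDX6.1 and 0.1502 and 0.1501 in sgDDX6.2.

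**Figure D4:**
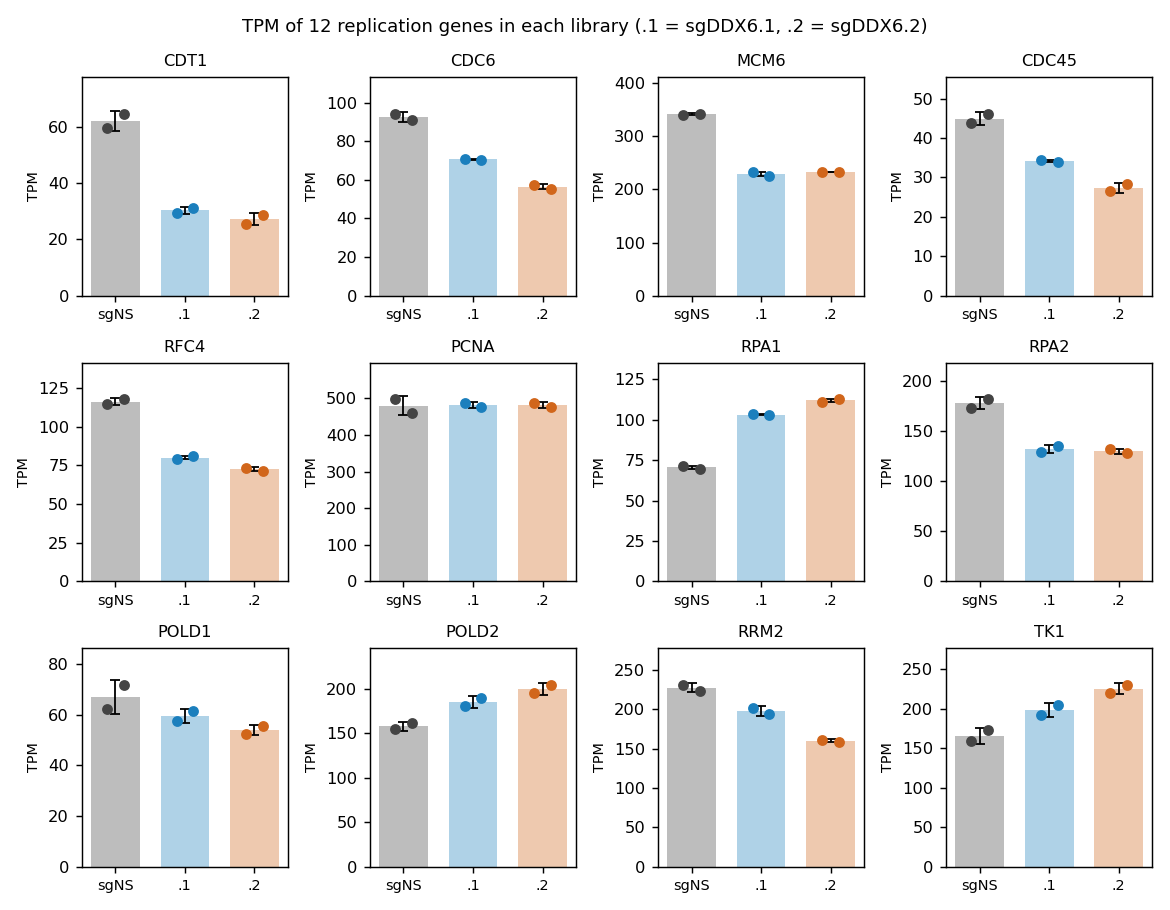
TPM of 12 replication genes in each library, with points for libraries, bars for group means and error bars for the SD of 2 libraries; axes start at 0 and differ between genes. CDT1, CDC6, MCM6, CDC45, RFC4, RPA2, POLD1 and RRM2 are lower in all sgDDX6 libraries, RPA1, POLD2 and TK1 are higher, and PCNA is level.

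Of the 7 polymerase genes, 2 fell (28.6%), near the 32.9% of all tested genes, and 1 rose (14.3%), against 33.8%. The other 4 were not called, and the median was -0.07. POLA1, the catalytic subunit of polymerase alpha, was 29.7 TPM in both sgNS libraries, 28.6 and 26.5 in sgDDX6.1 and 22.1 and 22.2 in sgDDX6.2, a log2 fold change of -0.26 (SE 0.05). POLD1, the catalytic subunit of polymerase delta, was 62.2 and 71.9 TPM in sgNS, 57.7 and 61.6 in sgDDX6.1 and 52.5 and 55.5 in sgDDX6.2 (-0.23, SE 0.06). The sgNS libraries of POLD1 lay far apart, and without the second the call was lost (-0.13, adjusted p = 0.0814). POLD2, an accessory subunit of the same enzyme, was 154 and 161 TPM in sgNS, 180.3 and 189.8 in sgDDX6.1 and 195 and 204 in sgDDX6.2. It rose by 0.28 (SE 0.04, adjusted p = 4.88e-05), opposite to POLD1, and the POLD1 to POLD2 ratio went from 0.403 and 0.446 to 0.320 and 0.324, and 0.269 and 0.271. POLA2 (0.03), POLD3 (-0.06), POLE (-0.07) and POLE2 (-0.12) were not called.

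The subunits of RPA, the trimer that coats single-stranded DNA, moved in opposite directions. RPA1 (chromosome 17, 1829702 to 1900082), the large subunit, was 71.3 and 69.7 TPM in sgNS, 104 and 103 in sgDDX6.1 and 111 and 113 in sgDDX6.2. It rose by 0.60 (SE 0.04, adjusted p = 6.42e-08), the largest increase of the 44 genes, with all sgDDX6 libraries above sgNS. RPA2 (chromosome 1, 27891524 to 27914746), the middle subunit, was 174 and 182 TPM in sgNS, 129.6 and 135 in sgDDX6.1 and 132 and 128 in sgDDX6.2. It fell by 0.44 (SE 0.04, adjusted p = 1.22e-06), and RPA3, the small subunit, was at 0.03 (95% interval -0.09 to 0.15). The ratio of RPA1 to RPA2 mRNA was 0.411 and 0.383 in sgNS, 0.799 and 0.762 in sgDDX6.1 and 0.844 and 0.883 in sgDDX6.2. The summed RPA level was 270.82 and 278 TPM in sgNS and between 259 and 270.73 TPM in sgDDX6, so the ranges nearly touched. FEN1, the flap nuclease, was 149.7 and 155 TPM in sgNS, 138 and 140.3 in sgDDX6.1 and 122 and 127 in sgDDX6.2 (-0.21, SE 0.04). The ligase LIG1 was not called (-0.04, 95% interval -0.15 to 0.08).

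Of the 4 nucleotide supply genes, 1 fell (25%), against 32.9% of all tested genes, and 2 rose (50%), against 33.8%. RRM2, the S phase subunit of ribonucleotide reductase, was 231 and 223 TPM in sgNS, 202 and 194 in sgDDX6.1 and 161 and 159 in sgDDX6.2, a log2 fold change of -0.35 (SE 0.04, adjusted p = 4.27e-06). Its partner RRM1 was not called (0.01, 95% interval -0.07 to 0.08), and the RRM2 to RRM1 ratio went from 1.45 and 1.35 to 1.16 and 1.13, and 1.05 and 1.02. TK1, the thymidine kinase of the salvage route, was 159 and 173 TPM in sgNS, 193 and 205 in sgDDX6.1, and 220.4 and 230.4 in sgDDX6.2. It rose by 0.35 (SE 0.04, adjusted p = 2.18e-05), and all sgDDX6 libraries lay above sgNS. TYMS, the thymidylate synthase of the de novo route and the member with the highest level in every library, was 619 and 612 TPM in sgNS, 704 and 702 in sgDDX6.1 and 713 and 717 in sgDDX6.2. It rose by 0.20 (SE 0.03, adjusted p = 4.93e-05), but under quantile normalization the value was 0.05 and was not called (adjusted p = 0.0785).

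Among genes of chromatin assembly and S phase control, 4 of 5 fell, against 32.9% of all tested genes. CHAF1A, a subunit of the histone chaperone CAF-1, was 86.0 and 84.4 TPM in sgNS, 68.3 and 69.1 in sgDDX6.1 and 53.2 and 55.8 in sgDDX6.2 (-0.47, SE 0.04, adjusted p = 1.12e-06). Its partner CHAF1B was not called (-0.10, 95% interval -0.20 to -0.0037, adjusted p = 0.0631). DTL, the ubiquitin ligase adaptor that has CDT1 degraded on PCNA, was 58.9 and 59.0 TPM in sgNS, 47.0 and 45.0 in sgDDX6.1 and 38.4 and 39.7 in sgDDX6.2 (-0.47, SE 0.04). UHRF1, which brings DNA methylation to new DNA, was 135 and 141 TPM in sgNS, 132 in both sgDDX6.1 libraries and 108 and 113 in sgDDX6.2 (-0.20, SE 0.04). SLBP, which binds histone mRNA, was 158 and 154 TPM in sgNS, 141 and 134 in sgDDX6.1 and 136 and 133 in sgDDX6.2 (-0.20, SE 0.04). In each of these 4 genes that fell, all sgDDX6 libraries lay below both sgNS libraries.

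Taken guide by guide, 19 members were lower and 6 higher with sgDDX6.1, against 29.7% and 31.8% of all tested genes (61.6% in either direction), with a median of -0.09. With sgDDX6.2, 29 were lower and 4 higher, against 32.7% and 31.5% (64.2% in either direction), with a median of -0.28. Of the members that fell over both guides, ORC6, GMNN, MCM3, GINS3, GINS4, RFC5, POLA1, POLD1 and UHRF1 were called with sgDDX6.2 only. POLE2 and CHAF1B were also called lower with that guide only, and MCM5 with sgDDX6.1 only. ORC1 and GINS1 were called higher with sgDDX6.1 only. Both comparisons use the same sgNS libraries, so the guides were also compared with each other directly. There, 22 members were lower with sgDDX6.2 and 2 were higher, against 18.6% and 17.0% of all tested genes (35.6% in either direction), with a median of -0.13 beside -0.02 over all tested genes. The count depends on single libraries: it was 13 lower without the first sgDDX6.2 library and 15 without the second, and the number higher was 1 without the first sgDDX6.1 library and 0 without the second sgDDX6.2 library. In 31 members both sgDDX6.2 libraries lay below both sgDDX6.1 libraries, against 38.5% of all tested genes.

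The widest gap between the guides was that of ORC6, lower by 0.42 with sgDDX6.2 (SE 0.05, adjusted p = 0.000158). MCM10 (-0.33), CHAF1A (-0.33), CDC6 (-0.32), CDC45 (-0.31), POLA1 (-0.30) and RRM2 (-0.30) followed, and their intervals overlap with that of ORC6. All 4 GINS genes were lower with sgDDX6.2, by between 0.20 and 0.27, and the calls of GINS2, GINS3 and GINS4 were lost without 1 or more of the single sgDDX6 libraries (adjusted p from 0.0523 to 0.151). MCM5, at 121 and 127 TPM with sgDDX6.1 and 139.8 and 150.4 with sgDDX6.2, was higher by 0.23 (adjusted p = 0.00407), and TK1 was higher by 0.18 (adjusted p = 0.0154). Without the second sgDDX6.2 library the call was lost for MCM5 (adjusted p = 0.0636) and for TK1 (adjusted p = 0.123), and that of TK1 also without the first sgDDX6.1 library. CDT1, the gene that fell most against sgNS, differed by -0.16 between the guides (95% interval -0.31 to -0.01, adjusted p = 0.0877). MCM6, MCM7, PCNA, RFC1, RFC2, RPA2 and SLBP differed by at most 0.03 in size, with intervals within -0.13 and 0.10.

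**Figure D5:**
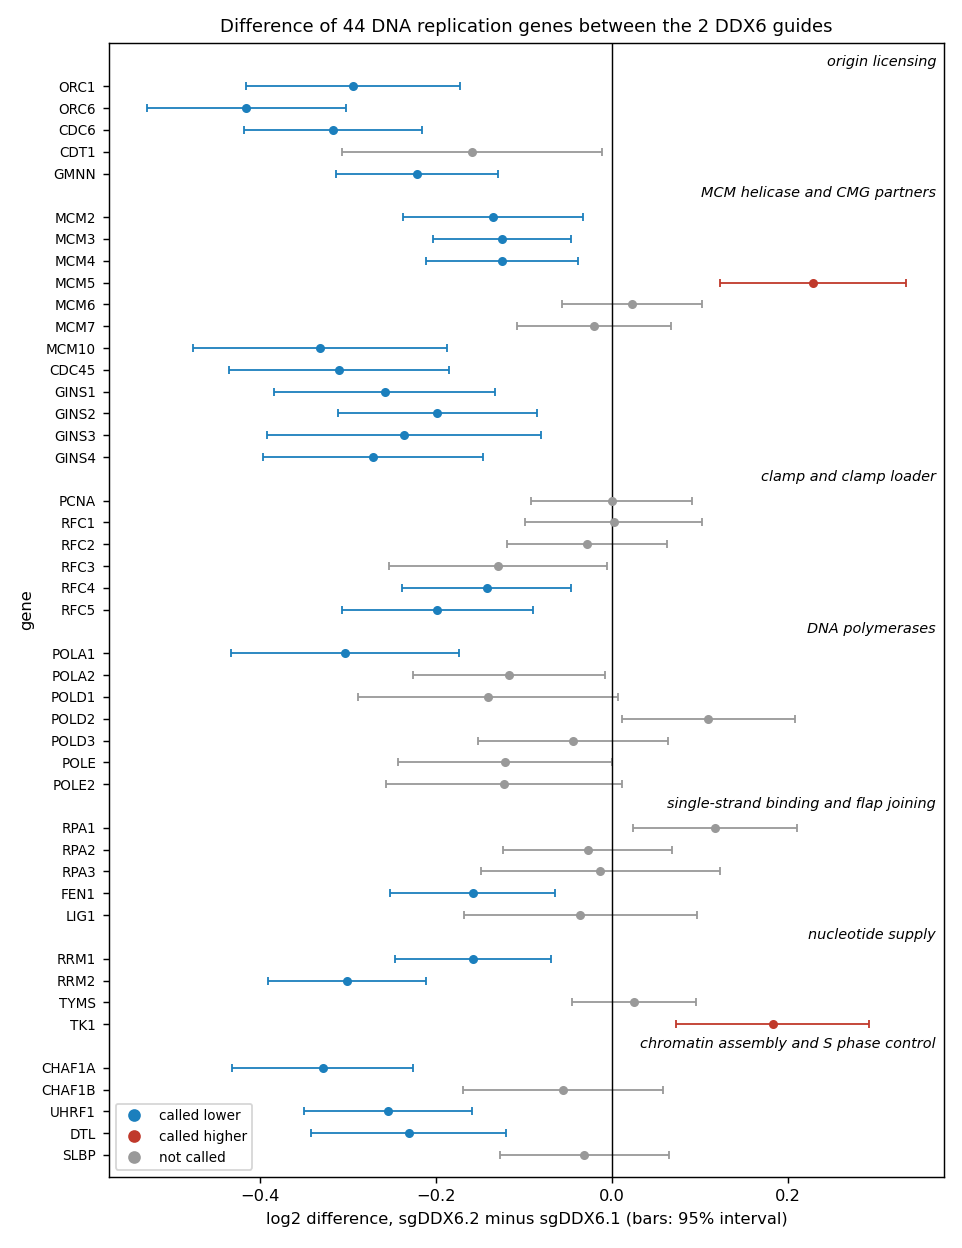
Log2 difference of each of the 44 replication genes between sgDDX6.2 and sgDDX6.1, by role, with 95% intervals that are not adjusted for the number of genes. Colours show the call: 22 genes are lower with sgDDX6.2 and 2, MCM5 and TK1, are higher.

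Replication genes outside the 44 were counted in the same way. Of 57 listed, 54 were tested, and over both guides 17 fell (31.5%) and 15 rose (27.8%), with a median of -0.04. These shares lie near the 32.9% and 33.8% of all tested genes. That balance depends on scaling, with 31 lower and 10 higher when TPM was rescaled without ribosomal protein genes, beside 4796 lower and 2861 higher of all 11254 genes then tested. PRIM1, the catalytic subunit of the primase that works with POLA1, fell by 0.93 (SE 0.04, adjusted p = 4.46e-09), from 112 TPM in both sgNS libraries to 60.4 and 60.2, and 58.4 and 54.4. The ORC subunit ORC3 fell by 0.65, ATAD5, which unloads PCNA, by 0.59, the chromatin remodeller HELLS by 0.56, and the fork protection factor TIPIN by 0.52. MMS22L fell by 0.40, EXO1 by 0.38, DNMT1, the maintenance DNA methyltransferase, by 0.25, and MCMBP by 0.22. ATAD5, TIPIN and EXO1 belong to a list of clamp loading, lagging-strand and fork protection genes. Of its 14 tested genes, 6 rose and 4 fell, with a median of 0.01. Of 10 further genes of deoxynucleotide supply, 5 rose and 2 fell, among them the nucleoside diphosphate kinase NME1 (0.52), the pyrophosphatase DCTPP1 (0.42) and the mitochondrial thymidine kinase TK2 (-0.51). DBF4B rose by 0.31, and POLE3 and POLE4, small subunits of polymerase epsilon, rose by 0.24 and 0.16. Between the guides, 29 of the 54 were lower with sgDDX6.2 and 4 were higher, against 18.6% and 17.0% of all tested genes.

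Genes of mitosis were set beside the replication genes. Of 38 mitosis and spindle genes, 22 rose and 8 fell over both guides, with a median of 0.20, against 33.8% and 32.9% of all tested genes. By guide, 24 were higher and 4 lower with sgDDX6.1 (median 0.31), against 31.8% and 29.7%, and 15 were higher and 12 lower with sgDDX6.2 (median 0.07), against 31.5% and 32.7%. The lowest adjusted p belonged to the checkpoint kinase BUB1 (0.71), the cytokinesis protein ANLN (0.66) and the APC/C activator CDC20 (0.47). With TPM rescaled without ribosomal protein genes the mitosis list had 19 higher and 12 lower. Of all 11254 genes then tested, 2861 were higher and 4796 lower. The summed TPM of the 44 replication genes was 5647 and 5696 in sgNS, 5268 and 5259 in sgDDX6.1 and 5007 and 5062 in sgDDX6.2. That of the mitosis genes was 3699 and 3642 in sgNS, 4600.3 and 4407 in sgDDX6.1 and 3901 and 3889.6 in sgDDX6.2. The ratio of both sums, which a constant factor on a library leaves unchanged, was 1.53 and 1.56 in sgNS, 1.15 and 1.19 in sgDDX6.1 and 1.28 and 1.30 in sgDDX6.2, so every sgDDX6 library lay below sgNS. Between the guides, 33 of the 38 mitosis genes were lower with sgDDX6.2, against 18.6% of all tested genes, with a median of -0.23. Among them were CDC20 (-0.35), the proliferation antigen MKI67 (-0.37) and KIF2C (-0.30).

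Of 24 tested E2F factors, pocket proteins, and G1/S cyclins, kinases and inhibitors, 14 fell and 4 rose over both guides, with a median of -0.20, against 32.9% and 33.8% of all tested genes. E2F2, an activator of replication genes, fell by 0.59 (SE 0.06), from 18.1 and 18.3 TPM to 12.7 in both sgDDX6.1 libraries and 10.8 and 11.1 in sgDDX6.2. CDK4, a kinase that inactivates pocket proteins, fell by 0.38, and CDKN2C, an inhibitor of that kinase, rose by 0.37. The CDK inhibitor CDKN1A, counted among the 4 that rose, was above sgNS only with sgDDX6.2. Its level was 25.7 and 25.4 TPM in sgNS, 19.6 and 19.2 in sgDDX6.1 and 42.9 and 44.2 in sgDDX6.2. The guides differed by 1.12 (SE 0.06, adjusted p = 2.5e-07). CDC25A, the phosphatase that activates CDK2, was lower with sgDDX6.2 by 0.26, and the cyclin CCND3 was higher by 0.34.

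The members were mostly abundant mRNAs, though GINS3, MCM10, POLE2 and RFC3 had mean levels below the median of the tested genes. The median level of the 44 members was between 60.4 and 79.7 TPM in a library, beside 25.7 to 26.6 TPM over all tested genes. The longest protein-coding transcript in GENCODE release 29 had a median length of 3224 bases for members and 3332 for tested genes, and a median GC content of 48.4% and 48.6%. By call, the median GC content was 48.1% in the 27 members that fell, 48.5% in the 13 not called and 54.4% in the 4 that rose. Some values are less certain, since the sources used here do not say whether reads were counted by strand. Of the 44 genes, 10 overlap a protein-coding gene on the other strand, 8 have a pseudogene of the same name, and 15 have either. These 15 include POLD2, RPA1 and TYMS among the genes that rose, and RPA2, RFC3, RFC4 and RRM2 among those that fell. CDT1, CDC6, MCM6, CDC45, TK1 and DTL have neither. These counts leave out protein-coding genes on the same strand, which overlap POLA2, POLD1, FEN1, RRM2 and CHAF1B. They also leave out other gene types, such as RPL21P28 and RN7SKP98 on the other strand of DTL.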

How the data were processed

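Poly(A)+ RNA of 6 libraries was measured. The deposited table holds TPM, which the authors made by scaling to transcript length and to 1000000 per library. RSEM 1.2.31 and GRCh38 were used, per the submitters' processing notes; for the aligner, annotation and strand setting the entry is "not given in the sources used here". A TPM value carries no read depth, so no interval on counts or detection limit was given. From it log2(TPM + 1) was computed, and 3 group means were estimated for every gene that reached 1 TPM in at least 2 libraries, with limma 3.58.1 in R 4.3.3 (variance trend, 3 residual degrees of freedom). limma drew each gene's variance towards that of genes of like level, so p-values and intervals do not rest on its own spread alone. Each contrast was tested two-sided at 0.05 after Benjamini-Hochberg correction across 11151 genes. The procedure was tested on simulated data. Groups came from the sample titles. Fold changes are on the log2(TPM + 1) scale, which understates changes of low genes.

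The members and all gene lists were chosen with earlier results of these data known. Values in every library are given for the 3 members of each role that changed most among those called, for members that rose, and for DTL, SLBP, PCNA and GMNN. Other genes named are up to 3 a list with the lowest adjusted p. Ratios other than CDT1 to GMNN, the printed sequences other than those of CDT1, MCM6 and POLA1, and further members given by library were chosen after values were seen. The fit was repeated with a pseudocount of 0.1 or 5, without a filter or with one of TPM 5, quantile normalization, median centring, rescaling without ribosomal protein genes, limma without trend or with robust estimation, the replicate block, fits to fewer groups, the 4 sgDDX6 libraries as a single group, and leaving out each library.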

Additional observations from a re-analysis of the deposited data

Results flagged for a closer look

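In 6 members the estimates for the 2 DDX6 guides against sgNS had opposite signs and differed by the direct limma test of sgDDX6.2 against sgDDX6.1. ORC6 differed by -0.42 (adjusted p = 0.000158), with 0.05 for sgDDX6.1 and -0.37 for sgDDX6.2 against sgNS. ORC1 differed by -0.29 (adjusted p = 0.00204), with 0.17 and -0.13, and GINS1 by -0.26 (adjusted p = 0.00524), with 0.15 and -0.11. MCM5 differed by 0.23 (adjusted p = 0.00407), with -0.16 and 0.06. RRM1 differed by -0.16 (adjusted p = 0.0113), with 0.09 and -0.07, and MCM4 by -0.13 (adjusted p = 0.029), with 0.07 and -0.05. In each of the 6, at least 1 guide was not called against sgNS: sgDDX6.1 for ORC6 (adjusted p = 0.457), sgDDX6.2 for ORC1 (0.0586), GINS1 (0.127) and MCM5 (0.265), and both guides for RRM1 and MCM4. The differences of MCM4 (adjusted p = 0.123 without the first sgDDX6.1 library), RRM1 (0.0528 without the same library) and MCM5 (0.0636 without the second sgDDX6.2 library) lost their call with fewer libraries, and those of MCM4 and RRM1 also without either sgDDX6.2 library.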

How the results depend on the processing

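Of the 31 members called over both guides, 21 kept their call and direction under each of 17 alternatives and none reversed; of the 24 called between the guides, 11 did and none reversed. A fit with 1 group for all 4 sgDDX6 libraries left 18 members lower over both guides and 18 other replication genes called, beside 32; the guides then add to the spread by construction. Leaving out a library gave 13 to 22 members lower and 0 to 2 higher between the guides, 25 to 28 lower over both guides, 16 to 20 lower with sgDDX6.1 and 27 to 30 with sgDDX6.2. Without the variance trend 1 member was higher between the guides. The replicate block gave 28 lower and 4 higher over both guides, and 24 lower and 4 higher between them; deviations of same-numbered libraries correlated by 0.26, 0.10 and 0.04 across genes, so the numbers were not taken as pairs. Members that were not called changed sign near 0. Rescaled without ribosomal protein genes, the value over both guides was -0.067 for GINS1, -0.074 for ORC1, -0.082 for MCM4, -0.084 for PCNA, -0.058 for POLA2, -0.059 for RPA3 and -0.085 for RRM1, with MCM4 and RRM1 then called, and -0.0064 for RFC1 between the guides. Quantile normalization gave -0.045 for MCM4, -0.041 for PCNA and -0.051 for RRM1 over both guides, and 0.0043 for RPA3 and -0.017 for TYMS between them. Median centring gave 0.020 for PCNA and 0.0069 for RPA3 between the guides. With a library left out, values over both guides ranged from -0.020 to 0.067 for GINS1, -0.10 to 0.028 for LIG1, -0.0049 to 0.028 for MCM4, -0.0096 to 0.045 for ORC1, -0.047 to 0.064 for PCNA and -0.021 to 0.037 for RRM1. Between the guides they ranged from -0.10 to 0.023 for LIG1, -0.047 to 0.0059 for MCM7, -0.019 to 0.018 for PCNA, -0.037 to 0.041 for RFC1, -0.057 to 0.0016 for RPA2, -0.072 to 0.045 for RPA3 and -0.073 to 0.0093 for SLBP. The cause of these shifts was not tested. Depth is unknown.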
